A study of Mus musculus with 8 samples.

Results

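The 1742 liver sites described here carried a C/EBPα peak in 6 libraries and none in the 2 libraries from mice given extra C/EBPα. They were chosen by peak calls alone. Any 1 bp of overlap between peaks, in whichever of the 8 lists, placed them in the same site, which gave 113353 sites. A site was taken where both AAV_Null, both Trib1_WT and both Trib1_LSKO lists had a peak and neither AAV_Cebpa list did. Of the 37859 sites called in both AAV_Null lists, 6043 (16.0%) had no AAV_Cebpa peak, and the 1742 are 28.8% of those. Of the 28134 sites called in the 6 lists outside AAV_Cebpa, they are 6.19%, with 2074 further sites called in 1 AAV_Cebpa list and 24318 called in both. Of the 3357 sites without an AAV_Cebpa peak that both AAV_Null and both Trib1_WT lists called, both Trib1_LSKO lists called these 1742 (51.9%), 1 called 1010 and neither called 605 (18.0%). Of the 2974 such sites called in 1 AAV_Cebpa list, both Trib1_LSKO lists called 69.7% and neither called 9.18%. Of the 25622 called in both AAV_Cebpa lists, both Trib1_LSKO lists called 94.9% and neither called 0.886%. These counts follow from the rule of choice and are a description, with no test.

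C/EBPα occupancy was read from ChIP-seq (sequencing of DNA recovered with an antibody against the factor from crosslinked chromatin) in liver of C57B/6 mice aged 8 to 10 weeks and fasted for 4 hours, with 2 libraries in each of 4 groups. Trib1_WT mice carried floxed Trib1 alleles and received 1.5e11 genome copies (gc) of AAV_Null, an adeno-associated virus vector, and Trib1_LSKO mice carried the same floxed alleles and received the same dose of AAV_Cre, which codes for the recombinase that cuts at the floxed sites. AAV_Null and AAV_Cebpa mice were wild type and received 1e12 gc, the former of AAV_Null and the latter of a vector that carries the C/EBPα coding sequence. The floxed alleles are thus present in both groups of the first experiment and in neither group of the second, and the vector dose also differs between the experiments. The sources used here do not give the promoters of the vectors. Nor do the labels state that replicates are different mice, and p-values may therefore measure a technical spread.

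C/EBPα is a basic leucine zipper transcription factor that binds DNA as a dimer and, in hepatocytes, acts at many genes of lipid, glucose and nitrogen metabolism. Trib1 encodes Tribbles-1, a pseudokinase that recruits the ubiquitin ligase COP1 to C/EBPα and thereby promotes its degradation. Loss of Trib1 and delivery of a C/EBPα vector are therefore both known as ways of raising C/EBPα protein, which peak lists do not measure. The question for these sites is how a set of positions without a call under the vector ranked in Trib1_LSKO, where the rule requires a call but does not use its strength.

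Peak lists held 46348 to 80394 peaks. The AAV_Cebpa lists were the longest, with 59564 and 80394 peaks, and their relative depths were 1.85 and 2.27 times that of AAV_Null replicate 1, against 1.0 to 1.93 in the other 6 libraries. The weakest listed peak held 7 to 12 tags, as read from the steps of the deposited signal. Chromosome Y held 9 to 14 peaks in each Trib1 list and none in the 4 lists of the second experiment, and no site described here lies on it. Hepatocyte genes could not be checked in these lists, because positions are in build mm9 and genes or sequence of that build were not used here.

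Among all peaks of the 6 lists that held them, the sites were of middling strength. Strength is given as the percentile of the authors' signal within its own list, where 100 is the strongest peak. The median percentile was 49.0 and 52.9 in the AAV_Null lists, 53.5 and 57.5 in Trib1_WT, and 36.5 and 46.4 in Trib1_LSKO. In tags, the medians were 28 and 38, 33 and 61, and 24 and 33 in the same order. A total of 374 sites (21.5%) belonged to the strongest 50% of all 6 lists, and 397 (22.8%) to the weakest 50% of all 6. Among sites also called in both AAV_Cebpa lists, 59.7% belonged to the strongest 50% of all 6 lists. Sites without an AAV_Cebpa peak were thus weaker as a class, with a minority that was strong in every list. Ranked only among the 28134 sites that all 6 lists called, their median over libraries was 27.3.

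At the lower edge, the 3 weakest sites had mean percentiles of 7.78 (chromosome 7, 90009187 to 90009471), 8.02 (chromosome 19, 17954071 to 17954296) and 8.25 (chromosome 15, 53397549 to 53397781). The first of these held 9 to 21 tags per list, with the fewest in Trib1_LSKO replicate 2. Just outside the set lie sites that missed it by a single weak AAV_Cebpa peak. A pair of sites on chromosome 11, at 48059318 to 48059625 and at 118967695 to 118967974, each had 12 tags in AAV_Cebpa replicate 2, the fewest in that list, and a site on chromosome 4, 101988682 to 101989070, had 11 tags in AAV_Cebpa replicate 1. Of the 2074 sites called in 1 AAV_Cebpa list, 1675 (80.8%) were in replicate 2, the longer list. Without that replicate the same rule gives 3417 sites, so the size of the set depends on it. With all 8 lists reduced to 46348 peaks, the length of the shortest, it gives 3197.

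The strongest site lay on chromosome 1, 90184740 to 90184976. Its percentiles were 98.6 and 99.9 in AAV_Null, 99.2 and 99.8 in Trib1_WT, and 99.7 and 99.9 in Trib1_LSKO, with 192 to 309 tags per library. The groups overlapped, and the site stood among the top peaks of all 6 lists while the nearest AAV_Cebpa peak was 666 bp away, at a site that both AAV_Null lists also called. Regions known for spurious signal were not filtered out.

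The next 9 sites had mean percentiles of 89.5 to 93.9. On chromosome 6, the site at 143479345 to 143479587 had percentiles of 95.6 and 94.9 in AAV_Null, 95.3 and 95.3 in Trib1_WT, and 90.1 and 92.4 in Trib1_LSKO. Both Trib1_LSKO values were below the other 4. Another on chromosome 1, at 138529550 to 138529874, had 94.0 and 93.4 in AAV_Null, 92.5 and 91.4 in Trib1_WT, and 88.6 and 90.4 in Trib1_LSKO, again with both Trib1_LSKO values lowest. On chromosome 3, the site at 21807826 to 21808041 had 92.3 and 94.8, 91.0 and 94.2, and 87.4 and 88.7 in the same order, with the same arrangement. The 2 sites on chromosome 4 departed from this. At 6205704 to 6205921, the Trib1_LSKO percentiles (88.9 and 92.0) overlapped those of AAV_Null (91.5 and 86.0) and of Trib1_WT (93.3 and 91.8). At 34907470 to 34907686, the Trib1_LSKO percentiles (90.1 and 89.8) were at or above those of AAV_Null (89.8 and 87.0). There they were below both Trib1_WT percentiles (93.7 and 93.1).

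The other 4 had mean percentiles of 89.5 to 90.3. They lay at 23143102 to 23143348 on chromosome 19, at 70544290 to 70544502 on chromosome 11, at 87520243 to 87520467 on chromosome 5 and at 25069719 to 25069961 on chromosome 13. In 3 of these 4, the Trib1_LSKO and AAV_Null percentiles overlapped. At the site on chromosome 19, both Trib1_LSKO percentiles (90.1 and 92.8) were above those of AAV_Null (89.0 and 82.5). Both Trib1_LSKO percentiles were below Trib1_WT on chromosome 11 (91.1 and 90.2 against 92.6 and 93.8). The same held on chromosome 5 (83.6 and 89.5 against 92.0 and 91.0). On chromosomes 19 and 13, the Trib1_LSKO and Trib1_WT percentiles overlapped. The plot of the 10 strongest sites shows all 60 values.

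**Figure D1:**
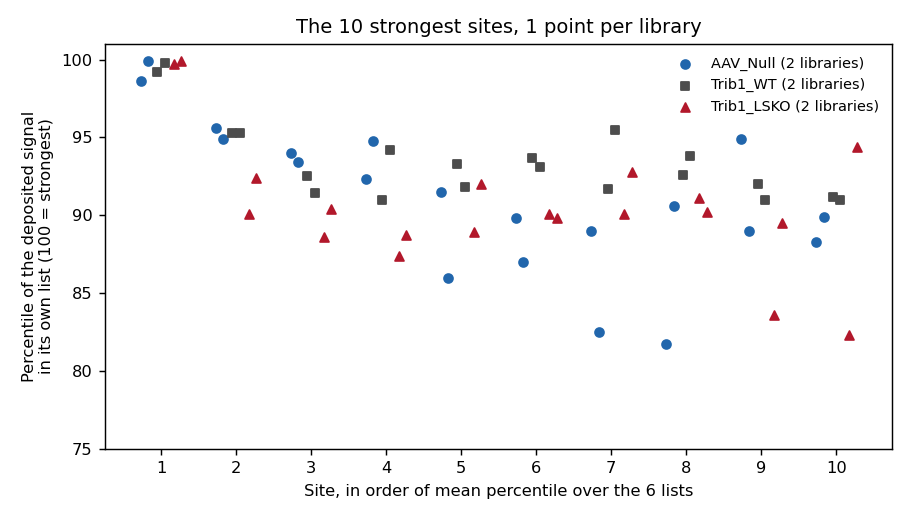
Percentile of the authors' signal within its own list (y axis, drawn from 75; 100 is the strongest peak) for the 10 strongest sites without an AAV_Cebpa peak (x axis, in order of mean percentile), with 1 point for each of the 6 libraries that called them. The first site lies between 98.6 and 99.9 in every library, and sites 2 to 4 have both Trib1_LSKO points below the other 4.

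A separate measure was the order of the sites within Trib1_LSKO compared with Trib1_WT, which the rule did not use. Each library's peaks were ranked among the same 28134 sites called in all 6 lists, so that the lengths of the lists did not enter. On this scale, where 100 is the strongest of the 28134, the sites without an AAV_Cebpa peak had median ranks of 27.0 and 30.7 in Trib1_WT and 16.6 and 21.9 in Trib1_LSKO. The AAV_Null libraries gave 27.7 and 30.4, close to Trib1_WT. Both Trib1_LSKO libraries were below all 4 control libraries.

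The mean of the library medians was 28.9 ± 2.61 in Trib1_WT and 19.2 ± 3.76 in Trib1_LSKO (SD, n = 2 each), a difference of -9.65 percentile points. With 6 ways to assign the 4 libraries, an exact permutation test (two-sided) gave p = 0.333, the smallest possible, so this design cannot pass a threshold of 0.05. Between replicates, the signed differences per site had medians of 2.56 points from Trib1_WT replicate 1 to 2 and 3.09 points from Trib1_LSKO replicate 1 to 2. The 4 signed differences between a Trib1_LSKO and a Trib1_WT library had medians of -10.63, -7.22, -6.47 and -3.76, the smallest of which is close in size to that between the Trib1_LSKO replicates. Without regard to sign, the median site differed by 6.25 and 6.89 points between replicates and by 8.17 to 11.6 points between the groups. Without Trib1_LSKO replicate 1 the difference of medians was -6.36, and without Trib1_WT replicate 2 it was -8.03. In the latter case the permutation p was 0.667, so the real grouping was no longer the most extreme of the exact assignments. Trib1_WT had relative depths of 1.14 and 1.93, Trib1_LSKO of 1.18 and 1.28 and AAV_Null of 1.0 and 1.17, and in each of these groups the deeper library had the higher median rank. The part of depth in the difference was not tested.

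The sites called in both AAV_Cebpa lists did not show this order. Their median ranks were 53.9 and 53.9 in Trib1_WT and 56.0 and 55.0 in Trib1_LSKO, a difference of 1.59 points. Ranks within 1 set are tied together, so a lower place for some sites raises others. The distance between the 2 classes of sites was -26.9 and -23.2 points in Trib1_WT, -39.4 and -33.1 in Trib1_LSKO, and -26.8 and -23.5 in AAV_Null. Its difference between Trib1_LSKO and Trib1_WT was -11.2 points (exact two-sided permutation p = 0.333, n = 2 each, the smallest possible). The 2074 sites called in 1 AAV_Cebpa list lay near the sites called in none, with 30.9 and 32.3 in Trib1_WT and 21.3 and 25.7 in Trib1_LSKO.

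**Figure D2:**
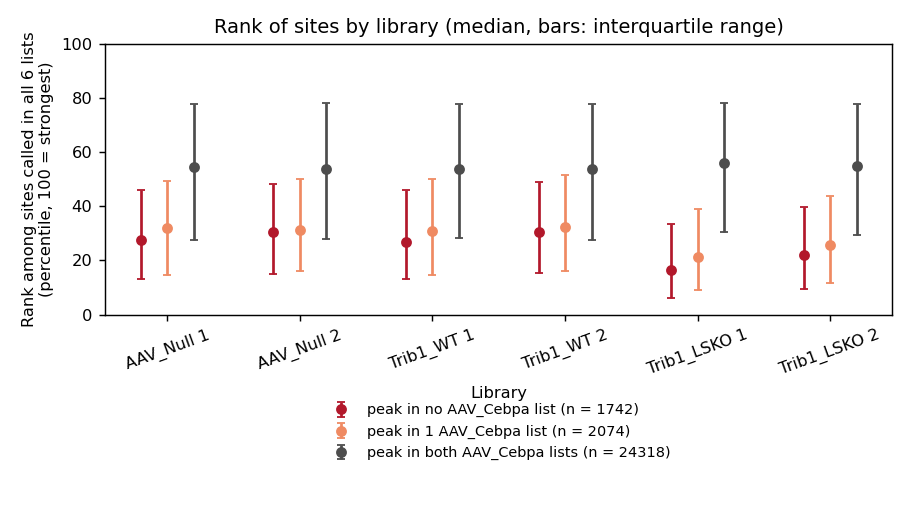
Median rank with interquartile range (y axis, percentile among the 28134 sites called in all 6 lists, 100 the strongest) in each library (x axis), for sites with a peak in none, 1 or both AAV_Cebpa lists. Sites with no AAV_Cebpa peak have medians of 27.0 to 30.7 in the 4 control libraries and of 16.6 and 21.9 in Trib1_LSKO.

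Site by site, 817 of the 1742 (46.9%, 95% Wilson interval 44.6% to 49.2%) had both Trib1_LSKO ranks below both Trib1_WT ranks. Over all 28134 sites called in the 6 lists this share was 30.2%. The opposite arrangement, with both Trib1_LSKO ranks above both Trib1_WT ranks, held for 98 sites (5.63%, interval 4.64% to 6.81%), against 22.0% over all 28134. The remaining 827 sites had overlapping groups. The median site differed by -7.13 points between the group means, with an interquartile range of -13.9 to -1.2, and 79.4% of the sites were below 0. Over all 28134 sites the median was -1.6 (interquartile range -7.82 to 5.02), with 58.4% below 0. Sites called in 1 AAV_Cebpa list were close to the 1742, with a median of -6.11, 75.9% below 0, and 43.7% (interval 41.6% to 45.8%) with both Trib1_LSKO ranks below both Trib1_WT ranks. Sites are not replicates of a condition, so the intervals cover the counting of sites only. The lower places in Trib1_LSKO were thus shared with sites that 1 AAV_Cebpa list called.

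**Figure D3:**
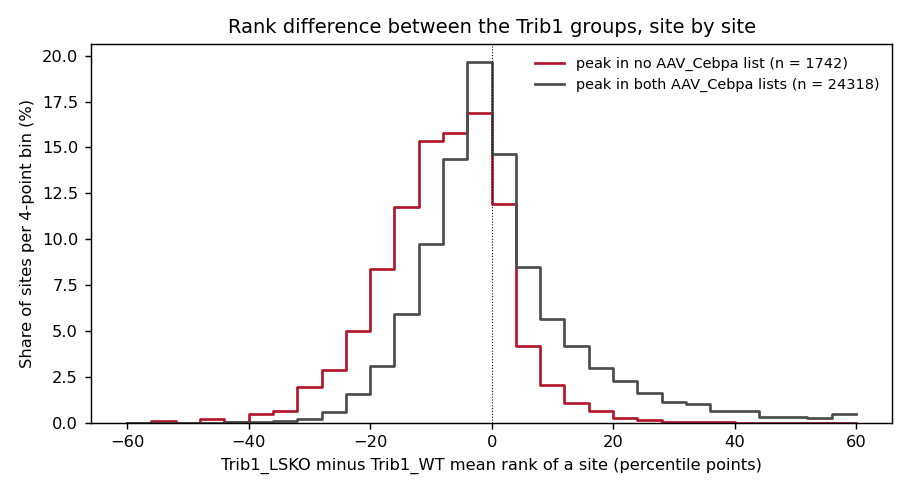
Distribution over sites (y axis, percent of sites per bin of 4 points) of the Trib1_LSKO minus Trib1_WT difference in mean rank (x axis, percentile points; values beyond 60 are placed in the end bins). The curve for the 1742 sites without an AAV_Cebpa peak has its median at -7.13, and that for the 24318 sites called in both AAV_Cebpa lists at -0.97.

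Read the other way, the share of sites without an AAV_Cebpa peak fell along the order of the Trib1_LSKO minus Trib1_WT difference. With the 28134 sites cut into 10 equal bins by this difference, 427 of 2813 sites (15.2%, 95% Wilson interval 13.9% to 16.6%) lacked an AAV_Cebpa peak in the bin that was lowest in Trib1_LSKO. In the bin that was highest, 22 of 2813 (0.782%, interval 0.517% to 1.18%) did. The share also depended on strength, from 11.0% in the weakest bin by AAV_Null rank to 0.0711% in the strongest, where only 2 of 2814 sites lacked an AAV_Cebpa peak. The latter is a description, since AAV_Null calls belong to the rule.

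**Figure D4:**
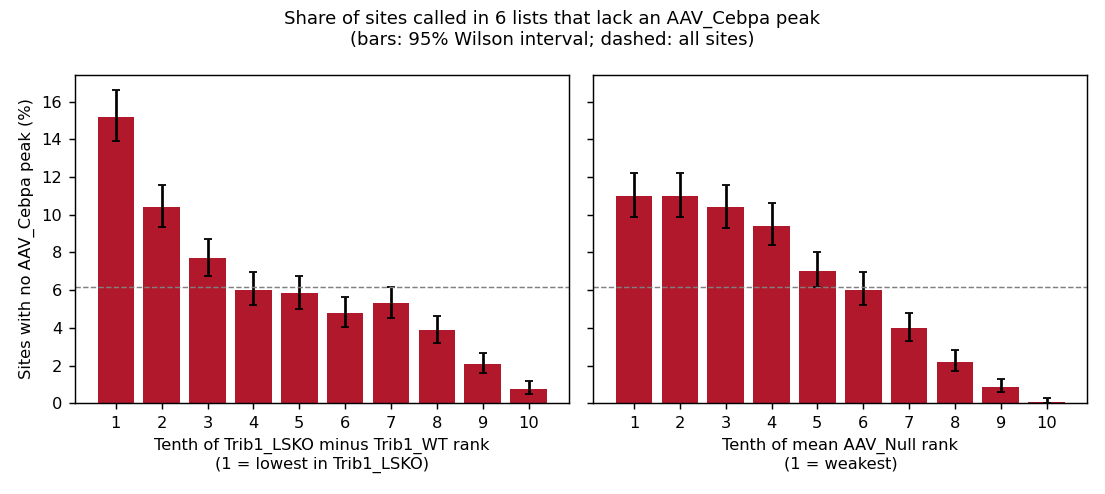
Percent of the 28134 sites called in 6 lists that lack an AAV_Cebpa peak (y axis) in 10 equal bins of the Trib1_LSKO minus Trib1_WT rank difference (left, bin 1 lowest in Trib1_LSKO) and of the mean AAV_Null rank (right, bin 1 weakest). Bars carry 95% Wilson intervals and the dashed line marks the 6.19% over all sites; the share runs from 15.2% to 0.782% on the left and from 11.0% to 0.0711% on the right.

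Because weak sites were frequent in the set, the Trib1 difference was also read at similar strength, with the 28134 sites cut into 4 equal bins by AAV_Null rank. In the weakest bin, 331 of 753 sites without an AAV_Cebpa peak (44.0%) had both Trib1_LSKO ranks below both Trib1_WT ranks, against 17.1% of the 5445 sites there that both AAV_Cebpa lists called. In the next bins the shares were 49.0% of 620 against 25.8%, 49.5% of 315 against 31.2%, and, in the strongest, 48.1% of 54 (interval 35.4% to 61.1%) against 35.1%. Against sites that both AAV_Cebpa lists called, the share was higher in each of the 4 bins, and the intervals met only in the strongest. Sites called in 1 AAV_Cebpa list had nearly the same shares as sites called in none, with 36.5%, 49.1%, 48.3% and 46.6% from the weakest bin to the strongest. The intervals of these 2 classes overlapped in all bins but the weakest (40.5% to 47.5% against 33.3% to 39.8%). The difference of library medians was -6.43, -9.81, -9.05 and -4.61 points from the weakest bin to the strongest. None of the 54 strongest sites had the opposite arrangement, against 3 of 88 (3.41%) called in 1 AAV_Cebpa list and 13.3% of 6893 called in both. In the weakest bin it held for 8.23% of sites without an AAV_Cebpa peak, 12.1% called in 1 list and 38.8% called in both. There the median site called in both AAV_Cebpa lists was higher in Trib1_LSKO, by 3.39 points, against -4.99 for sites without an AAV_Cebpa peak.

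The sites furthest down in Trib1_LSKO were not the strongest ones. On chromosome 5, the site at 87928048 to 87928513 ranked 68.4 and 70.0 in Trib1_WT and 15.0 and 16.8 in Trib1_LSKO, a difference of -53.31. In tags it held 77 and 128 against 23 and 29, but its AAV_Null ranks were also low, at 16.4 and 4.4. One on chromosome 6, at 136903234 to 136903525, ranked 71.3 and 56.0 in Trib1_WT and 16.6 and 5.19 in Trib1_LSKO, with AAV_Null ranks far apart at 58.0 and 11.3. One on chromosome 16, at 86829922 to 86830160, ranked 60.1 and 66.2 against 16.6 and 15.5, with AAV_Null at 32.0 and 35.5 in between. The sites on chromosome 11, 44782558 to 44782845, and chromosome 13, 28161523 to 28161780, followed with differences of -44.81 and -44.75. In these 5, the Trib1 groups were far apart by the way they were picked, and the mean AAV_Null rank was below both Trib1_WT ranks.

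A few sites moved up in Trib1_LSKO. The furthest was on chromosome X, 97883064 to 97883470, with ranks of 24.3 and 19.3 in Trib1_WT, 60.6 and 62.7 in Trib1_LSKO, and 0.681 and 1.79 in AAV_Null. An AAV_Cebpa peak at percentile 81.6 lay 453 bp away, at a site that both AAV_Null lists also called. On chromosome 2, the site at 90379514 to 90379783 ranked 0.599 and 12.1 in Trib1_WT and 45.2 and 37.6 in Trib1_LSKO. The other 3 were chromosome 1, 94798057 to 94798279 (difference 28.89), chromosome 5, 113322710 to 113322988 (26.65), and chromosome 15, 62770611 to 62770825 (26.03), and the last had an AAV_Cebpa peak at percentile 97.0 at a distance of 477 bp. These 10 sites were picked for their differences, which are therefore a description.

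Sites without an overlapping AAV_Cebpa peak were often near one. The nearest AAV_Cebpa peak was at a median distance of 3184 bp (interquartile range 1076 to 9103 bp). It was within 500 bp for 178 sites (10.2%, 95% Wilson interval 8.88% to 11.7%), within 1 kb for 407 (23.4%) and within 10 kb for 1338 (76.8%). For the 605 sites that were lost in both experiments (called in both AAV_Null and both Trib1_WT lists and in no AAV_Cebpa or Trib1_LSKO list), the shares were 9.09% (interval 7.05% to 11.6%), 19.3% and 71.1%. The intervals of the 2 sets overlap within 500 bp and within 1 kb but not within 10 kb (74.8% to 78.7% against 67.3% to 74.5%).

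The closest neighbours need separate reading, because the peaks of a list kept a minimum distance from each other. The smallest spacing between peaks was 376 and 320 bp in the AAV_Cebpa lists and 263 to 373 bp in the other 6. For 85 sites (4.88%) the nearest AAV_Cebpa peak was closer than 320 bp, a spacing at which neither AAV_Cebpa list held a pair of peaks. None of these 85 AAV_Cebpa peaks was at a site called in an AAV_Null list, and an AAV_Null list with a peak at the site itself could hardly hold another, since its own smallest spacing was 343 or 263 bp. From 320 to 500 bp, 73 of 93 (78.5%) were at sites called in no AAV_Null list. Only 0.811% and 0.854% of the gaps between neighbouring peaks of the AAV_Null lists were 500 bp or less, and each of the 1742 sites holds an AAV_Null peak by the rule, so calls there were largely fixed in advance and are a description. From 500 bp to 1 kb, 59 of 229 (25.8%, interval 20.5% to 31.8%) were at sites called in no AAV_Null list. Over all 84052 sites called in an AAV_Cebpa list, 50.8% were called in no AAV_Null list. A change in the called position within a bound stretch and the loss of binding cannot be told apart for the closest pairs from these lists.

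**Figure D5:**
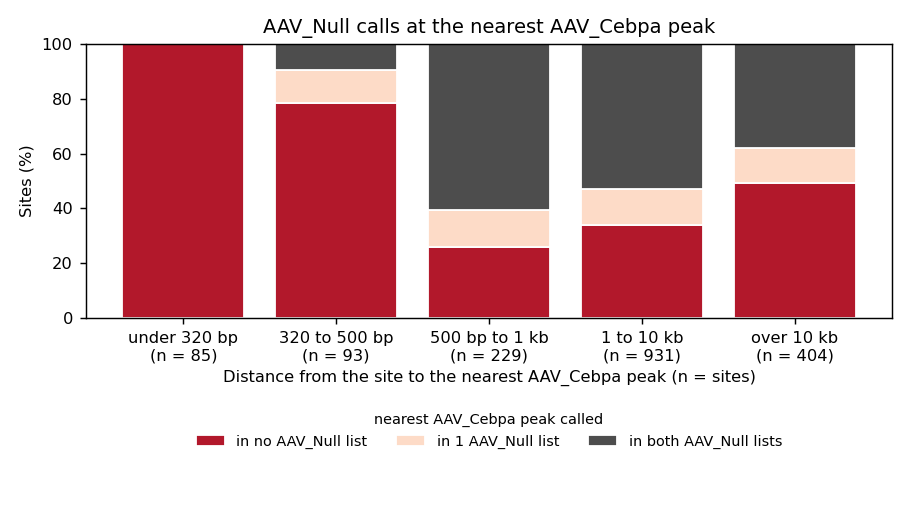
Percent of the 1742 sites (y axis) whose nearest AAV_Cebpa peak lies at a site called in none, 1 or both AAV_Null lists, by the distance to that peak (x axis, with the number of sites). Under 320 bp all 85 nearest peaks are at sites called in no AAV_Null list, and from 500 bp to 1 kb 25.8% are.

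Close AAV_Cebpa neighbours were more frequent at the strong sites. In the strongest 436 sites by mean percentile, 83 (19.0%, 95% Wilson interval 15.6% to 23.0%) had an AAV_Cebpa peak within 500 bp, against 22 of 435 (5.06%, interval 3.36% to 7.54%) in the weakest. Of the 10 strongest sites, 6 had one within 500 bp and 4 within 320 bp. That on chromosome 3, 21807826 to 21808041, had an AAV_Cebpa peak at percentile 89.6 at a distance of 239 bp. For the sites on chromosome 13, chromosome 11, and chromosome 6, 143479345 to 143479587, the distances were 276, 284 and 286 bp, and the neighbouring peaks had percentiles of 93.8, 90.9 and 94.4. All 4 of these neighbours were called in both AAV_Cebpa lists and in no AAV_Null list. At such distances an AAV_Null list with a peak at the site could hardly hold another, so the latter is a description.

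The lower ranks in Trib1_LSKO were present with and without such neighbours. Among the 404 sites with no AAV_Cebpa peak within 10 kb, the median ranks were 24.3 and 27.6 in Trib1_WT and 13.4 and 16.8 in Trib1_LSKO, and 213 sites (52.7%) had both Trib1_LSKO ranks below both Trib1_WT ranks. Among the 178 sites with one within 500 bp, the median ranks were 41.7 and 42.2 against 36.3 and 38.7, and the share was 39.3%. The opposite arrangement held for 6.93% of the 404 and 13.5% of the 178. Over all 28134 sites called in the 6 lists, 30.2% had both Trib1_LSKO ranks below both Trib1_WT ranks and 22.0% the opposite. The 178 sites ranked higher in Trib1_WT than the 404, and the 2 sets were not matched for strength. Whether the 2 sets differ in either arrangement was not tested.

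Around the sites, the mean number of C/EBPα peaks was somewhat higher than around sites that all 8 lists called. Within 5 kb on either side, the AAV_Null lists held 0.765 and 0.79 other peaks per site, against 0.614 and 0.666 around sites called in all 8 lists. The Trib1_WT lists held 0.85 and 0.868, against 0.682 and 0.711, and the Trib1_LSKO lists 0.774 and 0.829, against 0.673 and 0.719. In the AAV_Cebpa lists, which had no peak at the sites themselves, the numbers were 0.823 and 1.03, against 0.731 and 0.902. The share of sites with at least 1 such peak did not follow the means in AAV_Cebpa. It was 51.7% and 60.4% in the 2 AAV_Cebpa lists, against 52.5% and 61.0% around sites called in all 8 lists. Around the 605 sites lost in both experiments, the means were below those around sites called in all 8 lists in every library. They were 0.595 and 0.641 in AAV_Null and 0.635 and 0.678 in Trib1_WT. The higher means were thus not shared by all sites without an AAV_Cebpa peak.

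The sites were spread over all autosomes and chromosome X. Their share of the sites called in the 6 lists ran from 4.88% on chromosome 7 and 4.97% on chromosome X to 7.45% on chromosome 2 (146 of 1959 sites, 95% Wilson interval 6.37% to 8.7%). The interval on chromosome 7 was 3.89% to 6.1%, just below the 6.19% over all chromosomes, that on chromosome 11 (4.99%, interval 4.05% to 6.12%) also lay below it, and that on chromosome 2 lay just above it. With 20 chromosomes compared and no test, these are descriptions. The joined sites were 205 to 510 bp wide with a median of 246 bp, and the midpoints of the 6 peaks at a site spanned a median of 46 bp, against 30 bp at sites called in all 8 lists. The span was larger at weak sites in both classes (51 and 43 bp in the weakest of the 4 bins by AAV_Null rank, 26 and 22 bp in the strongest).

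Most of the sites stood alone. Another of the 1742 lay within 50 kb of 385 (22.1%), and the median distance to the nearest other one was 232152 bp. Chained at up to 50 kb, they formed 158 pairs, 19 groups of 3 and 3 groups of 4. The first group of 4 spans chromosome 5, 122717964 to 122763341, where 6 sites were called in the 6 lists, 1 of them also in both AAV_Cebpa lists, and 1 site was gained in AAV_Cebpa (called in both of its lists and in no AAV_Null list). Its member at 122756602 to 122756830 had percentiles of 91.0 and 91.4 in Trib1_WT, 75.6 and 78.6 in Trib1_LSKO, and 86.9 and 70.5 in AAV_Null. The second spans chromosome 6, 149096982 to 149173740, with 7 sites called in the 6 lists, 3 of which both AAV_Cebpa lists called too. The third spans 28431 bp on chromosome 18, 39009580 to 39038010, and all 4 sites that the 6 lists called there lacked an AAV_Cebpa peak. It too held 1 site gained in AAV_Cebpa, and the AAV_Cebpa peak nearest to its member at 39030447 to 39030694 lay 364 bp away.

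In the group on chromosome 18, the site at 39030447 to 39030694 was the strongest, with percentiles of 91.5 and 92.6 in Trib1_WT, 87.4 and 82.3 in Trib1_LSKO, and 87.2 and 84.8 in AAV_Null. The site at 39009580 to 39009950 had 65.5 and 73.1 in Trib1_WT, 36.5 and 24.9 in Trib1_LSKO, and 53.2 and 41.3 in AAV_Null. The Trib1_LSKO minus Trib1_WT rank difference was negative at all 4 sites, from -35.32 to -11.31, and also at the 4 sites of the other groups, from -24.51 to -5.68 on chromosome 5 and from -7.95 to -2.72 on chromosome 6. These 12 sites share their stretches of chromosome and are not independent of each other. The difference was also below 0 at 79.4% of all 1742 sites and at 58.4% of all 28134.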

How the data were processed

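The authors deposited 1 list per library of 200 bp peaks, each with 1 signal value and no header. The submitters' processing notes name Bowtie, HOMER and build mm9, without versions. The sources used here give no input libraries, calling thresholds or duplicate handling. The signal stepped in whole multiples of 1 unit per list (within 0.051), which gave tags per peak and relative depth. Its scaling total is unknown, so signal was only ranked.

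Sites were built in Python 3.11.15 (numpy 2.4.6, pandas 2.3.3, scipy 1.17.1), and the joining and ranking code was tested on simulated lists. Coordinates are mm9, 1-based. Peaks on chromosome 1 reach 197173796, past the last GRCm38 gene end there (195291439). The members and lists were chosen with earlier results of these data known. Named sites are the 10 strongest, the 3 weakest, 3 just outside, the 5 lowest and 5 highest in Trib1_LSKO against Trib1_WT with non-overlapping groups, and the 3 groups with the most members chained within 50 kb. The planned work on genes and sequence motifs needs mm9 sequence and genes, which were not used here.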

Additional observations from a re-analysis of the deposited data

How the results depend on the processing

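Replicate lists shared at most 2.3% of exact positions, so none was a copy of another. The direction of the Trib1 rank difference was negative under all alternatives run, between -14.04 (percentiles in the full lists) and -4.61 points (strongest of 4 bins by AAV_Null rank, a split chosen after seeing the data). With the replicate block it was -9.65 (exact sign-flip p = 0.5, the smallest 2 pairs allow); same-numbered deviations had a correlation of 0.2 over sites, and with 2 pairs the numbers are not shown to pair the libraries. Leaving out 1 library gave -10.91 to -6.36 points, 1794 to 3417 sites, and 45.6% to 67.3% of sites lower in Trib1_LSKO. Without a Trib1 library that share counts fewer comparisons per site, and its value over all sites rises too, to between 41.3% and 45.8%. The number of sites was 964 with the strongest 50% of each list, 374 when a peak had to be in the strongest 50% to count as present while absence was judged on full lists, and 3197 with lists of equal length. The share lower in Trib1_LSKO was then 39.2%, 39.3% and 42.6%, against 27.2%, 27.2% and 30.0% over all sites under the same settings. The opposite arrangement held for 8.61%, 6.95% and 8.2%, against 21.0%, 21.0% and 21.9%. With no AAV_Cebpa peak within 1 kb, 49.6% were lower, against 30.2% over all sites, and 4.87% had the opposite arrangement, against 22.0%. Strength as a median over libraries was 51.0 in the full lists and 27.3 among sites called in all 6. An AAV_Cebpa peak within 500 bp was found for 7.81% of sites in the replicate 1 list by itself and 8.32% with lists of equal length. The remaining 43 recomputed values kept their direction and side of the threshold, or lay within 1.5 times (counts) or the 95% interval (shares) of the main value. At the median of 24 to 61 tags per site, ranks of single sites are imprecise, and 2 libraries per group limit every comparison.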
